A study of Mus musculus with 15 samples.

Results

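Skeletal muscle contractile genes were described in 15 tumors of a poly(I:C) time course. The 35 genes encode proteins of the muscle fiber. They were chosen as a set because they were far higher in a single tumor, day 3 replicate 1, than in the others. Eno3, Myh7, Myl2 and Myl3 did not have their highest level there. The set is 35 of 32543 genes with a usable name in the count table, of which 23387 had a count in at least 1 tumor. Since the level in day 3 replicate 1 chose the genes, that level is given here as a description and was not tested.

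The tumors were subcutaneous fibrosarcomas grown from WEHI-164 cells in female BALB/c mice, labelled wild type. WEHI-164 is a mouse fibrosarcoma line. Day 0 tumors were untreated, and the tumors of days 1, 3, 5 and 7 had received intratumoral poly(I:C), a synthetic double-stranded RNA sensed by Toll-like receptor 3. The labels give 1 µg in 25 µL each day for a planned 6 doses, while a legend of the study names a higher daily dose, so the dose is uncertain. Each day had 3 tumors. The study's methods state that surrounding tissue was removed at harvest. The labels name no cell type other than fibrosarcoma. They do not say whether the tumors of a day came from separate mice. A legend of the study gives 3 mice per group for the time course, which was done once. P-values therefore measure the spread between these tumors only.

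Contraction of skeletal muscle is driven by myosin heavy chains that pull on actin filaments within repeating units called sarcomeres. Calcium released from the sarcoplasmic reticulum binds troponin C, which shifts troponin I, troponin T and tropomyosin and exposes actin to myosin. Fast and slow fibers use different genes for most of these parts, and both need proteins that anchor filaments, handle calcium and supply energy. In the mouse, the muscle layer beneath the skin is a thin sheet of mainly fast fibers.

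Each library held between 23.7 and 31.9 mega-counts. Levels are in CPM, which are counts scaled by library total and TMM factor, and a limit of 3 counts came to between 0.0940 and 0.127 CPM. Day 3 replicate 1, with 24.8 mega-counts, stood apart well beyond the muscle genes. Of 15494 genes tested, it was the highest of the 15 tumors in 33.7% and the lowest in 36.6%. Every level below is therefore given for that tumor and for the other 14 separately, and the tests of the members were run without it. In bulk tumors, fewer cells of a type and less RNA per cell cannot be told apart.

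In day 3 replicate 1, 31 of the 35 genes were at their highest of all 15 tumors (33.7% of all genes). The exceptions were the slow myosin Myh7, the slow light chains Myl2 and Myl3 and the enolase Eno3. The ratio of day 3 replicate 1 to the median of the other 14 tumors could be given for 33 genes, since Myl2 and Myl3 had a few counts at most. It was at least 2 for 32 genes (21.5% of all genes) and at least 5 and also at least 10 for 30 genes (7.99% and 3.06%). The median ratio was 28.7, against 0.967 over all genes tested. Nothing is read from these shares, since the same ratio chose the genes. The members nearest to the low end were Tnnc1 at 4.37, Myh7 at 2.23 and Eno3 at 0.710, and the next above them was Ryr1 at 15.1.

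**Figure D1:**
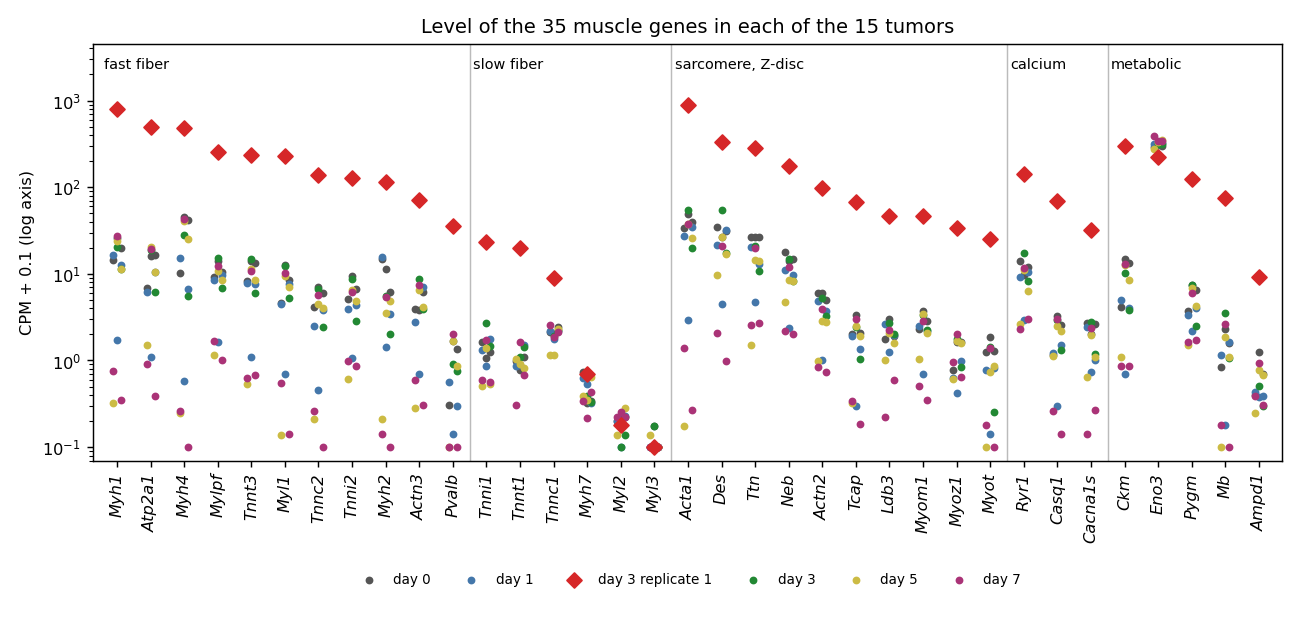
Level of each of the 35 genes in each tumor, as CPM + 0.1 on a log axis, grouped by role and ordered by the level in day 3 replicate 1. Points are single tumors colored by harvest day and the red diamond is day 3 replicate 1, which lies above all other tumors for 31 genes but not for Myh7, Myl2, Myl3 and Eno3.

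The fast-fiber genes had the largest ratios as a group, and several of them are used as markers of fast fibers. All 11 had their highest level in day 3 replicate 1, with ratios between 18.7 for the actin crosslinker Actn3 and 62.3 for the calcium buffer parvalbumin, Pvalb. Their median ratio was 36.4. Summed, they stood at 2976 CPM in day 3 replicate 1 and at 3.05 to 160.4 CPM, with a median of 81.9, in the other tumors.

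The adult myosin heavy chains set the contraction speed of a fiber, and 3 of the 4 measured belong to fast fibers. Levels are listed in the order of replicate 1, 2 and 3 within each day here and for the genes that follow. Myh1, the IIx myosin, was at 14.4, 25.8 and 19.6 CPM in untreated tumors, 16.2, 1.63 and 12.5 after 1 day, 789, 20.3 and 11.2 after 3 days, 0.220, 23.8 and 11.2 after 5 days and 0.651, 27.6 and 0.251 after 7 days. Myh4, the myosin of the fastest IIb fibers, was at 10.2, 45.6 and 41.4 CPM in untreated tumors, 15.3, 0.479 and 6.55 after 1 day, 478, 28.2 and 5.44 after 3 days, 0.146, 40.6 and 25.2 after 5 days and 0.163, 42.9 and 0 after 7 days. Day 3 replicate 1 was far above the rest for both. At the other end, day 1 replicate 2, day 5 replicate 1 and day 7 replicates 1 and 3 were all below 2 CPM, each on a day that also held a tumor with 11.2 CPM or more of Myh1. Myh2, the myosin of IIa fibers, was at 14.7, 11.1 and 6.08 CPM in untreated tumors, 15.4, 1.32 and 3.34 after 1 day, 115, 5.44 and 1.91 after 3 days, 0.1098, 3.45 and 4.81 after 5 days and 0.0407, 5.32 and 0 after 7 days. In Myh2 the distance was smaller, as day 0 replicate 1 and day 1 replicate 1 reached 14.7 and 15.4 CPM, and the ratio to the highest other tumor was 7.46 against 28.6 for Myh1. Myh7, the slow and cardiac beta myosin, had only 19, 6 and 6 counts in untreated tumors, 16, 11 and 7 after 1 day, 15, 8 and 6 after 3 days, 8, 7 and 15 after 5 days and 6, 3 and 8 after 7 days. Its 15 counts in day 3 replicate 1 were within the range of 3 to 19 counts of the other tumors, so Myh7 was not distinguishable from the rest at this depth.

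Levels of different genes were compared per length, that is, as counts divided by the summed exon length and rescaled to the same total in every tumor. On that scale day 3 replicate 1 held 56.5% of its adult myosin level in Myh1, 36.1% in Myh4, 7.33% in Myh2 and 0.0319% in Myh7, over 34352 counts. In the 10 other tumors with at least 400 myosin counts, Myh1 held 26.4 to 59.4%, Myh4 27.8 to 63.5%, Myh2 4.40 to 33.8% and Myh7 0.108 to 1.22%. The shares of the 3 fast myosins in day 3 replicate 1 thus lay inside the range of the others, and the Myh7 share lay below it. The remaining 4 tumors had 97, 21, 27 and 14 myosin counts, too few for a stable composition. Myh1, Myh2 and Myh4 lie side by side on chromosome 11 (GRCm38, from 67171027 to 67260446) and are near-identical in long stretches, so the division of reads among them is uncertain, while their sum is less so.

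**Figure D2:**
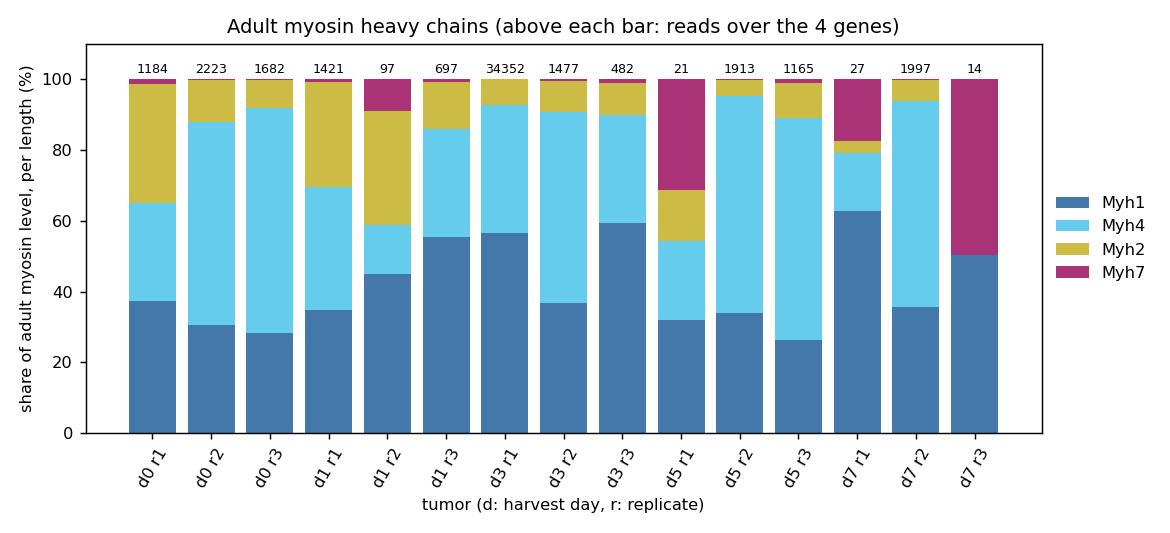
Share of each adult myosin heavy chain in the summed per-length level (%), stacked for each tumor, with the number of reads over the 4 genes above each bar. Day 3 replicate 1 (34352 reads) shows mostly Myh1 and Myh4, as do the 10 other tumors with at least 400 reads, and the 4 bars with a large Myh7 share rest on 14 to 97 reads.

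The promoters of Myh1, Myh4, Acta1 and Myh7 are shown because the first 3 genes had ratios of 58.7, 37.4 and 29.1 in day 3 replicate 1 and the last was not above the range of the other tumors. The sequences are RefSeq windows on GRCm38.p6 from 250 bases before to 50 bases after the gene start given by RefSeq, 5′ to 3′ on the gene's strand. The positions are chr11:67199852-67200151 (plus strand) for Myh1, chr11:67237562-67237861 (plus strand) for Myh4, chr8:123894726-123895025 (minus strand) for Acta1 and chr14:54994577-54994876 (minus strand) for Myh7. Capitals mark, on either strand, the E-box CAGCTG, the TATA sequence TATAAA, the MEF2 motif and the CArG box, which are known binding sequences of myogenic regulators, the core transcription machinery, MEF2 factors and serum response factor.
Myh1: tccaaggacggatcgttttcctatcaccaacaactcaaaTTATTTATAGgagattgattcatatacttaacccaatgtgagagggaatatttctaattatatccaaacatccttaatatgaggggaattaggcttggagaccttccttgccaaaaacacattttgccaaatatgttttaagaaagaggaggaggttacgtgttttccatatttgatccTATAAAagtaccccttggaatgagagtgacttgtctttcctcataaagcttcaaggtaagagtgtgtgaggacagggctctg
Myh4: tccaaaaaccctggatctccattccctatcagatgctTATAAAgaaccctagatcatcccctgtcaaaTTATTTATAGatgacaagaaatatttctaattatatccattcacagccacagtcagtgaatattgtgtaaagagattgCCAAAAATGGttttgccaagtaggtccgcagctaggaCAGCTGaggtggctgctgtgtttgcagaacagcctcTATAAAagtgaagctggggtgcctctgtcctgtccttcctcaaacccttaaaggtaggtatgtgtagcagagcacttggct
Acta1: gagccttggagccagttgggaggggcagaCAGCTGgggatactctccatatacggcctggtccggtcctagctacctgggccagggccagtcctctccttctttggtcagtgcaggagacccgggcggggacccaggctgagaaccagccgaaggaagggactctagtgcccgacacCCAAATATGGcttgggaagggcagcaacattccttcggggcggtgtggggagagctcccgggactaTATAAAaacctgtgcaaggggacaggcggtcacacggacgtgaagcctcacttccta
Myh7: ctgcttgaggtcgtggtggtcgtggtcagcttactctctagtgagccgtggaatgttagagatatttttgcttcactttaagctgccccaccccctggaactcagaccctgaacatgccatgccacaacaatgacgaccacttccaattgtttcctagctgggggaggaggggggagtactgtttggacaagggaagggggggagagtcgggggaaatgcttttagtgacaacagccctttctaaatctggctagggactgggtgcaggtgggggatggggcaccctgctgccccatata

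Windows were found for 27 of the 35 genes. CAGCTG occurred in 13 of them (48.1%, against 16.1% of all 27025 promoter windows), TATAAA in 6 (22.2% against 14.2%), the MEF2 motif in 4 (14.8% against 1.89%) and the CArG box in 5 (18.5% against 1.57%). The looser E-box CANNTG, which includes every CAGCTG, occurred in 22 (81.5% against 72.1%). The MEF2 matches were in Myh1, Myh4, Pvalb and Ttn, and in Myh1 and Myh4 each overlaps a TATAAA match. The Myh7 window held none of the capitalized motifs. Eno3, the only tested member under a ratio of 1, held a CAGCTG, as did Ckm and Des with ratios of 66.6 and 15.7. These matches describe letters in a window and were not tested.

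The troponin genes gave fast and slow pairs at usable counts. Tnnc2, the fast calcium-binding subunit, was at 4.01, 6.96 and 5.96 CPM in untreated tumors, 2.41, 0.359 and 3.69 after 1 day, 138, 6.62 and 2.33 after 3 days, 0.1098, 4.34 and 3.91 after 5 days and 0.163, 5.55 and 0 after 7 days. Tnnc1, the subunit of slow and cardiac muscle, was at 2.02, 1.90 and 2.36 CPM in untreated tumors, 2.10, 1.67 and 2.07 after 1 day, 8.89, 1.80 and 2.14 after 3 days, 1.06, 1.07 and 2.19 after 5 days and 2.44, 1.75 and 2.05 after 7 days. Tnnc1 barely varied among the other 14 tumors, where its highest level was 2.30 times its lowest, and day 3 replicate 1 was 4.37 times their median, while Tnnc2 was 36.4 times its median. Per length, Tnnc2 exceeded Tnnc1 by 20.3 times in day 3 replicate 1 and by at most 5.29 times elsewhere, and in 4 tumors it was the lower of the pair.

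Tnni2, the fast inhibitory subunit, was at 5.02, 9.31 and 6.60 CPM in untreated tumors, 3.84, 0.957 and 4.31 after 1 day, 129, 8.53 and 2.76 after 3 days, 0.512, 6.37 and 4.70 after 5 days and 0.895, 6.08 and 0.752 after 7 days. Tnni1, its slow counterpart, was at 1.55, 0.968 and 1.16 CPM in untreated tumors, 1.24, 0.758 and 1.68 after 1 day, 23.3, 2.57 and 1.36 after 3 days, 0.402, 1.28 and 0.431 after 5 days and 0.488, 1.63 and 0.460 after 7 days. Both were well clear of the other tumors in day 3 replicate 1, with ratios of 28.7 and 19.4, and their quotient per length of 13.3 lay inside the range of the others, from 3.04 to 26.3. Tnnt3, the fast tropomyosin-binding subunit, was at 8.12, 14.1 and 13.3 CPM in untreated tumors, 7.82, 0.997 and 7.52 after 1 day, 234, 14.6 and 5.83 after 3 days, 0.439, 11.3 and 8.40 after 5 days and 0.529, 10.7 and 0.585 after 7 days. Tnnt1, its slow counterpart, was at 0.876, 0.670 and 1.00 CPM in untreated tumors, 0.768, 0.798 and 1.43 after 1 day, 19.5, 0.992 and 1.32 after 3 days, 0.951, 0.818 and 0.718 after 5 days and 0.203, 1.52 and 0.585 after 7 days. Here too the quotient in day 3 replicate 1, 16.7, was inside the range of 0.643 to 29.3. Slow troponin I and T were thus high in that tumor along with the fast forms, unlike Myh7.

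The light chains differed by fiber type. Mylpf, the fast regulatory chain, reached 257.7 CPM in day 3 replicate 1 against 0.919 to 14.96 CPM, and Myl1, the fast essential chain, 230.0 CPM against 0.0366 to 12.5 CPM. Their slow and ventricular counterparts were not detectable as higher. Myl2 had 2 counts in day 3 replicate 1 and 0 to 5 in the others. Myl3 had 0 counts there, which allows up to 3 counts or 0.121 CPM, and 0 to 2 in the others. The pump Atp2a1, which returns calcium to the reticulum of fast fibers, was at 498.8 CPM against 0.293 to 20.1 CPM. Actn3 and Pvalb completed the fast group at 71.9 and 35.2 CPM, against at most 8.67 and 1.94 CPM.

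Summed per length, the 11 fast genes exceeded the 6 slow genes by 49.3 times in day 3 replicate 1 and by 0.793 to 28.6 times, with a median of 11.3, in the others. Both sums were highest in that tumor, the fast sum at 35.8 times and the slow sum at 8.64 times the median of the others. The quotient was 36.9 with the length of the longest transcript and 56.8 without correction for length. Under these 3 choices of length it was 1.40 to 1.73 times the highest of the other tumors. The order changed with Tnnt1 and Tnni1 alone in the slow sum, where the quotient was 77.1 in day 3 replicate 1 and 4.27 to 111 in the others, with day 0 replicate 2 (111) and day 5 replicate 3 (81.7) above it. Among the other 14 tumors the slow sum lay between 4.91 and 9.72 and the fast sum between 6.09 and 197 on the per-length scale.

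**Figure D3:**
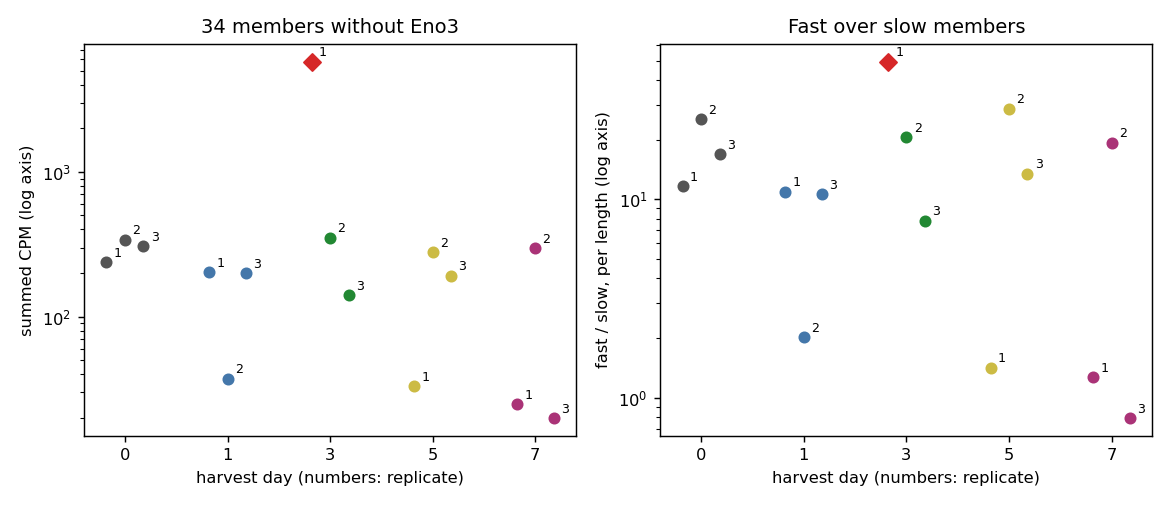
Summed level of the 34 genes other than Eno3 (left, CPM) and quotient of the fast and slow genes per exon length (right), both on log axes, for each tumor by harvest day, with the replicate number beside each point. Day 3 replicate 1 (red diamond) is at 5777 CPM and a quotient of 49.3, and day 1 replicate 2, day 5 replicate 1 and day 7 replicates 1 and 3 are the lowest of the other tumors on both scales.

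Genes of the sarcomere and its Z-disc that serve both fiber types were all highest in day 3 replicate 1, with 10 of 10 at least 15.7 times the median of the others and a median ratio of 27.1. Acta1, the skeletal actin of the thin filament, had the highest level per length of all 35 genes in that tumor. It was at 34.04, 49.0 and 39.7 CPM in untreated tumors, 27.4, 2.87 and 34.2 after 1 day, 894, 54.6 and 19.7 after 3 days, 0.0732, 37.2 and 26.1 after 5 days and 1.30, 37.5 and 0.167 after 7 days. Ttn, the giant spring that spans the sarcomere, was at 26.2, 26.9 and 26.5 CPM in untreated tumors, 20.1, 4.59 and 12.8 after 1 day, 285, 21.1 and 10.8 after 3 days, 1.39, 14.3 and 13.9 after 5 days and 2.48, 20.0 and 2.59 after 7 days. The 3 untreated tumors lay close together in Ttn (26.5 ± 0.330 CPM, SD, n = 3), and all 11 treated tumors other than day 3 replicate 1 were below them. The share of all genes with this pattern was not counted. In the edgeR tests given below, Ttn was not called on any day (unadjusted p of 0.238, 0.471, 0.132 and 0.0866 on days 1, 3, 5 and 7). In Acta1, day 5 replicate 1 and day 7 replicate 3 had 2 and 4 counts in all, day 7 replicate 1 had 32, and the other 3 tumors of these days had 728 to 1045 counts.

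The Z-disc genes with the largest ratios were Myoz1 at 39.2, Tcap at 37.0 and Myot at 36.7, which encode a calcineurin-binding anchor, the titin cap and myotilin. Actn2, the Z-disc actinin, had a ratio of 28.7, and Ldb3, its binding partner, 25.5. Myom1, which crosslinks myosin at the M-band, had 21.4, and Neb, the ruler of the thin filament, 19.6. Des, the muscle intermediate filament, was the lowest of the group at 15.7 and was at 0.878 to 55.0 CPM in the other tumors.

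The 3 members of the calcium release unit had ratios of 52.3 for Casq1, the calcium store of the reticulum, 21.6 for Cacna1s, the voltage sensor, and 15.1 for Ryr1, the release channel. Ryr1 kept 55 to 471 counts in every other tumor, so its reference was not near 0.

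Among the energy genes, Ckm, the muscle creatine kinase, was at 4.04, 14.6 and 13.3 CPM in untreated tumors, 4.84, 0.598 and 3.89 after 1 day, 296, 10.1 and 3.77 after 3 days, 0.988, 12.5 and 8.37 after 5 days and 0.773, 12.7 and 0.752 after 7 days. Mb, the oxygen store myoglobin, had the largest ratio of all, 71.6, and was at 0.742, 2.23 and 1.48 CPM in untreated tumors, 1.07, 0.0798 and 1.52 after 1 day, 74.3, 3.45 and 0.972 after 3 days, 0, 1.74 and 1.01 after 5 days and 0.0813, 2.55 and 0 after 7 days. Its median in the other tumors was 1.04 CPM, with no count in day 5 replicate 1 and day 7 replicate 3, so this ratio has a small base. Pygm, the muscle glycogen phosphorylase, and Ampd1, the muscle AMP deaminase, had ratios of 32.9 and 28.3.

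Eno3, the muscle form of enolase, differed from the other members. It was at 292, 307 and 303 CPM in untreated tumors, 313, 314 and 326 after 1 day, 223, 313 and 315 after 3 days, 279, 330.3 and 353 after 5 days and 385, 338 and 338 after 7 days. Day 3 replicate 1 was the lowest of the 15 tumors, below the 278.5 to 384.9 CPM of the others, and those 14 differed by 1.38 times at most. Eno3 therefore held 47.2 to 94.4% of the summed counts of the 35 genes in the other tumors and 3.72% in day 3 replicate 1. The general enolase Eno1 was also low there, at 490.0 CPM against 1116 to 1917 CPM. In these tumors the Eno3 level did not follow the other members.

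The low levels outside day 3 replicate 1 were not uniform. All 35 genes together made up 0.602% of the counts of day 3 replicate 1 and 0.0311 to 0.0662% of the others. Without Eno3, a choice made after the data were seen, the sum was 5777 CPM in day 3 replicate 1. In the others it was 239, 340 and 305 CPM in untreated tumors, 202, 37.2 and 199 CPM after 1 day, 351 and 140.2 CPM in replicates 2 and 3 of day 3, 32.9, 277 and 192 CPM after 5 days and 24.7, 298 and 19.9 CPM after 7 days. Of these 14 tumors, 10 lay between 140.2 and 351 CPM and 4 lay between 19.9 and 37.2 CPM. The highest tumor of a day exceeded the lowest by 1.42 times before treatment, 5.43 times after 1 day, 8.44 times after 5 days and 14.96 times after 7 days, and each treated day other than day 3 had tumors in both ranges.

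The same 4 tumors, day 1 replicate 2, day 5 replicate 1 and day 7 replicates 1 and 3, were the lowest 4 of the 14 for 26 of 33 members taken singly, as a description, since the members also make up the sum. The 7 members that had other tumors among their lowest 4 were Tnnc1, Tnni1, Tnnt1 and Myh7 of the slow group, Eno3, Ampd1 and Myoz1. At the low end, day 7 replicate 3 had 24 of the 35 genes above 3 counts and 7 at 0. The slow troponins kept 11 to 49 counts in that tumor, and Eno3 had 8095.

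The design asked how the genes changed between untreated tumors and tumors treated for 1, 3, 5 or 7 days. Without day 3 replicate 1, and with 33 of the 35 genes passing the filter on low counts, edgeR called no gene of 15378 at an adjusted p under 0.05 on any day or in the joint test of the 4 treated days (0% of genes), and so no member. At an unadjusted p under 0.05, 840 genes differed from untreated after 1 day, 2011 after 3 days, 1474 after 5 days and 739 after 7 days, and 1110 in the joint test. DESeq2 called 71, 87, 18, 16 and 176 genes (0.462%, 0.566%, 0.117%, 0.104% and 1.14%), with no member among them.

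The median change of the members was below 0 on each treated day, and no member passed the test. The median log2 fold change of the 33 was -0.92 after 1 day, -0.21 after 3 days (2 tumors), -0.67 after 5 days and -1.14 after 7 days, against medians between -0.01 and 0.01 over all genes. The sign was negative for 29, 24, 32 and 31 of the 33. The same 4 tumors were the lowest for 26 members, so these counts are not of independent genes. The share of negative signs over all genes was not counted, so nothing is read from these counts. The day 3 median was not stable in sign. Without day 3 replicate 3 it was 0.23, with 21 of the 33 members positive. At an unadjusted p under 0.05 there was no member on day 1 (3.64% of all genes higher and 1.83% lower), on day 3 (6.52% and 6.56%) or on day 5 (4.14% and 5.45%), and none in the joint test (7.22%). On day 7 there were 1 higher and 2 lower (2.87% and 1.94% of all genes).

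The member with the lowest p on day 1 was Myoz1, with a log2 fold change of -1.08 ± 0.60 (SE, edgeR unadjusted p = 0.0976, adjusted p = 0.931). On day 3 it was Ampd1 at -1.17 ± 0.76 (edgeR unadjusted p = 0.153, adjusted p = 0.477), and on day 5 Actn2 at -1.39 ± 0.71 (edgeR unadjusted p = 0.0733, adjusted p = 0.506). On day 7 it was Eno3, at 0.25 ± 0.09 (edgeR unadjusted p = 0.0137, adjusted p = 0.926), with all 3 tumors above all 3 of day 0. The other members with an unadjusted p under 0.05 on day 7 were Actn2 at -1.67 ± 0.72 and Neb at -1.52 ± 0.68.

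**Figure D4:**
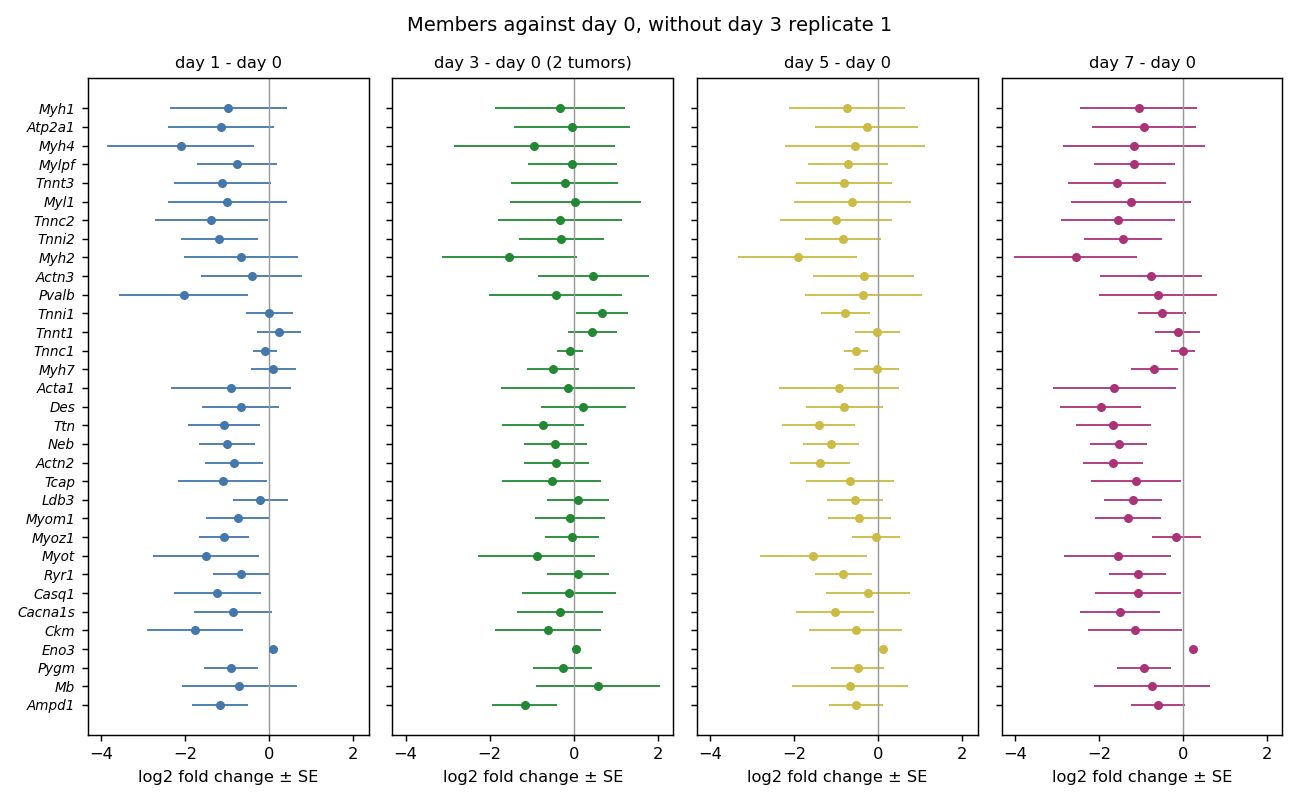
Log2 fold change against day 0 with its standard error for the 33 members tested, by harvest day, from the edgeR fit of 14 tumors. Most points lie left of 0, with narrow errors for Eno3 and Tnnc1 and wide ones for fast genes such as Myh4, and no member passed an adjusted p of 0.05 on any day.

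Counted by tumors that did not overlap day 0, 8 members were lower on day 1 (6.62% of all genes) and 1, Eno3, was higher (5.78%). On day 3, with 2 tumors, 2 were lower and 1 was higher (23.1% each). On day 5, 7 were lower (10.9%) and none was higher (6.89%), and on day 7, 5 were lower (6.24%) and 1 was higher (5.05%). Ttn was among the lower genes on all 4 days, Neb and Actn2 on days 1, 5 and 7, and Myh2 on days 3, 5 and 7. All 4 comparisons share the 3 untreated tumors.

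Single tumors moved these medians by more than 1.5 times. With day 3 replicate 1 included, the median of the members on day 3 was 2.84 in place of -0.21, which is a description, since that tumor chose the members. Without day 7 replicate 2, whose sum of 298 CPM lay within the range of the untreated tumors, the day 7 median was -3.68 and 28 members were lower at an unadjusted p under 0.05 (4.16% of all genes), with a lowest adjusted p of 0.439. Leaving out replicate 1 or 3 of that day gave -0.68 or -0.66. Leaving out day 1 replicate 2 gave a day 1 median of -0.49. For day 3 the median became 0.23 if replicate 3 was dropped, -0.84 if replicate 2 was dropped, and -0.34 or -0.03 if untreated replicate 1 or 2 was dropped. For day 5 it became -0.18 if replicate 1 was dropped and -1.25 if replicate 2 was dropped.

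Other muscle genes, from lists that held no member, were mostly higher in day 3 replicate 1 too. The lists were chosen with earlier results of these data known, so their levels are a description and no independent support. Of all genes tested, 33.7% were highest in that tumor. Of the 25 further sarcomere genes, 24 were tested, 21 of these were highest in that tumor and the median ratio was 17.5. The largest was the perinatal myosin Myh8 at 78.5, although it resembles the adult myosins beside it, and the embryonic myosin Myh3 was at 21.8. The 3 under 1 were Tpm1 at 0.770, Flnc at 0.782 and Tpm3 at 0.921, which cells other than muscle also express. Of 19 tested genes of the calcium and membrane system, 18 were highest (median ratio 16.5), among them Sypl2 at 46.5 and Sgca at 41.1, but not Atp2a2 at 0.595. Of 14 tested metabolic genes, 12 were highest (median 10.8), led by the mitochondrial creatine kinase Ckmt2 at 83.9.

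The regulators of the muscle program divided. Myog and Myf6, which act in differentiating and mature fibers, had ratios of 10.03 and 10.8, and Myod1 had 65 counts in day 3 replicate 1 against 0 to 9. Pax7 and Mstn of the same list had 27 and 45 counts there, against 0 to 4 and 0 to 6 in the others. Myf5 and Pax3 were lower in that tumor than in any other, with ratios of 0.205 and 0.200. In the other 14 tumors both had counts throughout, at least 420 and 187, also in the tumors where Acta1 was at 2 to 4 counts. At the neuromuscular junction, Colq and Chrng had ratios of 42.4 and 12.5, while Chrnb1 was at 0.322 and Rapsn at 0.592. The junction list summed to 61.6 CPM in day 3 replicate 1, below the 68.0 to 124 CPM of the others.

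The general forms of the muscle proteins had smaller ratios. Of 18 such partner genes, 4 were highest in day 3 replicate 1 (33.7% of all genes) and the median ratio was 0.805. Actn1 was at 0.487, Myh9 at 0.661 and Actb at 1.34, while the muscle forms Actn2, Myh4 and Acta1 were at 28.7, 37.4 and 29.1. The largest partner ratio was that of Ckb, the brain creatine kinase, at 5.06.

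Most markers of adipocytes, endothelium and smooth muscle were high together with the muscle genes in day 3 replicate 1. The part of other cell types in the result was not tested. Of all genes tested, 33.7% were highest in that tumor, and these lists too were chosen with earlier results known. The adipocyte list summed to 381 CPM against 19.9 to 90.5 CPM, with 10 of 10 tested genes highest there (median ratio 12.1) and Cidea at 5 counts. Its highest level among the other tumors was in day 5 replicate 1, a tumor with 2 Acta1 counts. The endothelial list summed to 615 CPM against 96.7 to 336 CPM, with 8 of 8 highest (median 3.42), and 5 of 6 tested smooth muscle genes were highest (median 4.59). The list of fibrosarcoma and mesenchymal markers covers the tumor type itself. It summed to 21722 CPM against 8186 to 12802 CPM, with 5 of 8 genes highest (median 2.46). Its ratios ran from 15.9 for Col1a2, 7.44 for Col1a1, 6.53 for Thy1 and 3.39 for Sparc to 0.593 for Vim and 0.276 for S100a4.

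The cardiac list summed to 110.3 CPM in day 3 replicate 1, above the 23.0 to 85.7 CPM of the others. In that tumor 3 of its 6 tested genes were highest (33.7% of all genes), with a median ratio of 3.06. Those were Actc1 and Myl4, which developing skeletal muscle also uses, at ratios of 36.5 and 11.9, and the cardiac troponin Tnni3 at 5.34 (182 counts). Tnnt2 was at 0.784 (991 counts), Nppb at 0.584 and Nppa at 0.458 (3 counts), and Myh6 and Myl7 had 0 counts, which allows up to 3. The keratinocyte list summed to 11.2 CPM, inside the 5.93 to 44.0 CPM of the others, with Krt1, Krt15 and Krtdap at 0 and Krt5 and Krt14 at 1 count each. The nerve list summed to 155 CPM against 86.4 to 178 CPM. The sums of skin and nerve genes were thus within the range of the other tumors, and the cardiac sum was not.

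**Figure D5:**
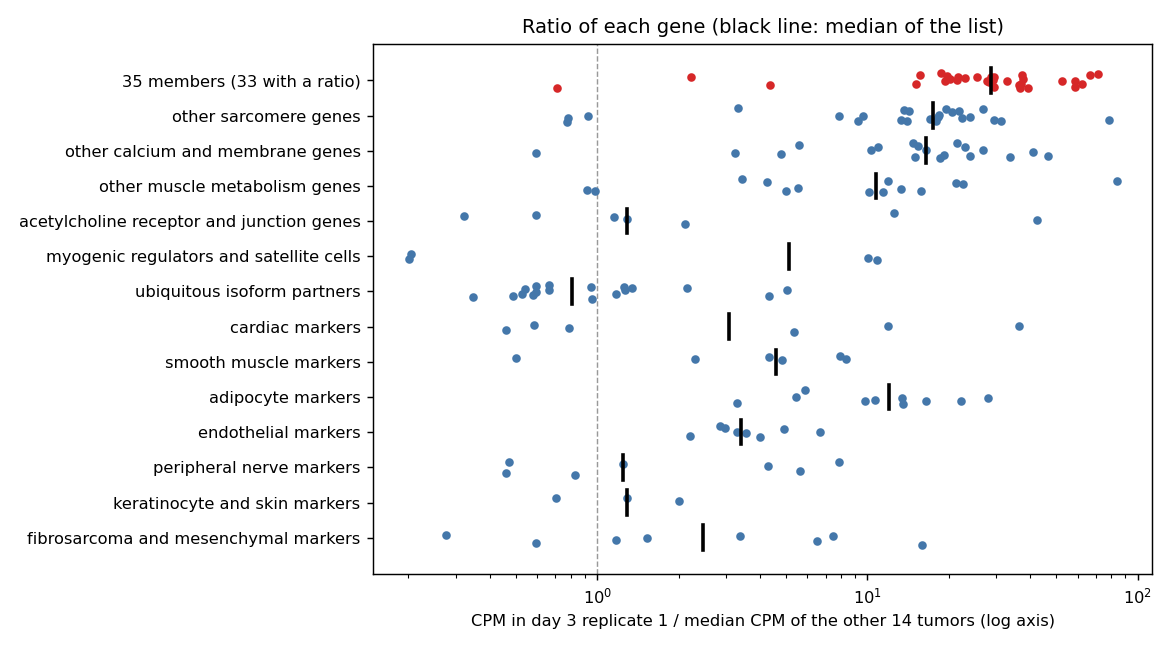
Ratio of day 3 replicate 1 to the median of the other 14 tumors for each tested gene of each list, on a log axis, with the list's median as a black line and a dashed line at 1. The members (median 28.7) lie farthest to the right, with the sarcomere (17.5), calcium and membrane (16.5), adipocyte (12.1) and metabolic (10.8) lists. The muscle regulators (5.11) and junction genes (1.28) lie lower, and the general isoform partners (0.805) lie around 1.

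Genes that are no members also had large ratios, on a lower base than the members, which needed a median over 3 counts. The 10 with the largest ratio that are no members, among those with at least 100 counts in day 3 replicate 1 and a median of at least 1 count in the others, were Mup16 (171), Ccl21a (158), Fbln7 (121), Ighg1 (121), Cys1 (118), Retnla (109), Adh1 (93.5), Ckmt2 (83.9), Greb1 (79.5) and Myh8 (78.5). Only Ckmt2 and Myh8 of these stood in a muscle list. In all, 444 genes that are no members were at least 10 times the median of the others, of which 44 stood in the muscle lists.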

How the data were processed

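Poly(A) RNA of 15 tumors was read as 100 base single-end reads. The authors made estimated counts per gene with kallisto and tximport on GRCm38 and deposited them in whole numbers, 1 column a tumor. The transcript set was not given in the sources used here. Kallisto divides reads among similar transcripts, which makes the counts of paralogs such as the myosins uncertain. Of 32544 entries, 9156 had no count and 1 was a date in place of a gene name and was left out (at most 0.0268% of a library). Names were matched to mouse symbols regardless of case, and 31401 matched.

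Levels are CPM with TMM factors. Genes above the CPM minimum of the study in at least 3 of the tumors fitted were kept, a minimum equal to 8.68 to 11.7 counts depending on the library, which left 15378 genes in 14 tumors and 15494 in 15. Day 3 replicate 1 was left out of the main test. The two-sided quasi-likelihood test of edgeR 4.0.16 (R 4.3.3) compared each treated day with day 0 and the 4 treated days jointly, with Benjamini-Hochberg adjustment over all genes and a threshold of 0.05. It was also run on simulated data with the same spread for every gene, which does not show its power for the members. DESeq2 1.42.0 was an alternative, as were other filters, size factors, a block and leaving out each tumor. A limit of 3 counts was set for a count of 0, and limits cover counting error only. Lengths are exon unions of GENCODE M21. Ratios of members and list genes were given where the median of the other 14 tumors was over 3 counts, and the 10 largest ratios of other genes needed a median of at least 1 count. No 2 tumors of the same day were alike within sampling noise.

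The members and lists were chosen with earlier results of these data known. Values in every tumor were given for the adult myosins, the troponin pairs, Ckm, Acta1, Ttn and the members with the smallest and largest ratio, statistics for the member with the lowest p on each day, and the 10 largest ratios for genes that are no members. Other genes named are ends of a list's range or examples chosen after their values were seen. Not every gene of the list of myogenic regulators is reported here.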

Additional observations from a re-analysis of the deposited data

How the results depend on the processing

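No member was called in any of the 5 tests under any alternative run: all 15 tumors, other size factors, both other filters, DESeq2, the replicate block and leaving out each of 14 tumors. The day 3 fit of all 15 tumors holds the values that chose the members and is no test of them. The number of genes called moved from 0 to 71, 87, 18 and 16 for days 1, 3, 5 and 7 and to 176 in the joint test with DESeq2. Leaving out a tumor gave 0 to 71 genes on day 3 and 0 to 4 in the joint test, both from leaving out day 1 replicate 3, and 0 to 0 on days 1, 5 and 7. Of the 4 fold changes recomputed (Myoz1 on day 1, Ampd1 on day 3, Actn2 on day 5 and Eno3 on day 7), Ampd1 alone turned, to 2.22 ± 1.12 with all 15 tumors. The replicate numbers did not pair the tumors: same-numbered tumors of different days had correlations of deviations between -0.619 and 0.511, with 9 of 30 over 0.1, and 2 of 15 tumors correlated best with their own number. With the replicate block, 0 genes were called in each test, and the median of the members was -0.65, -0.67, -1.01 and -1.63 on days 1, 3, 5 and 7.

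The median ratio of the members was 23.6 against the other 2 tumors of day 3 and 14.2 against the highest of the other 14 tumors, the latter chosen after the data were seen. The summed level of day 3 replicate 1, 6000.3 CPM, was 6058 over library totals without the members and 5777 without Eno3. The quotient of fast and slow genes, 49.3, was 36.9 with the longest transcript, 56.8 without length correction and 77.1 with Tnnt1 and Tnni1 alone, also chosen after the data were seen. Under that last choice 2 other tumors were higher, up to 111. With 2 or 3 tumors a day, changes of the members on treated days were measured with little precision. With day 3 replicate 1 left out, the summed level without Eno3 spread up to 14.96 times within a day. Single members with over 3 counts in every tumor of a day spread up to 277 times, for Myh4 on day 5. Counts of 0 to 5 for Myl2 and 0 to 2 for Myl3 limit any statement on the slow light chains.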
